A study of Mus musculus with 12 samples.

Results

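The fall in ChIP-seq signal of the transcription factor BMAL1 after activation of PER2-ER was followed at 4740 genomic regions. It was read in 4 BMAL1 ChIP-seq libraries, out of 12 libraries in the series. ChIP-seq counts the DNA fragments that an antibody to a protein brings down from crosslinked chromatin. The 4740 regions are all those counted by the authors, and none was left out. By their names they come from MACS2 peak calls on the control cells, which were given no inducer. A site occupied only after induction would not be among them.

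All cells were mouse embryonic fibroblasts of 129/sv background that lack Per1, Per2, Nr1d1 and Nr1d2 (each -/-) and carry a PER2-ER transgene. BMAL1 ChIP was done in 2 libraries from cells given 1 µM 4-hydroxytamoxifen (4-OHT) for 4 h and in 2 libraries from cells given the solvent, 0.1% ethanol (EtOH), for the same time. The same cells gave 2 input libraries, which are chromatin taken without antibody, and 2 mRNA libraries for each treatment. The control cells thus carry the same knockouts and the same transgene, and cells that lack the transgene were not analysed here. The labels name neither the promoter of the transgene nor a clone. They do not say whether the libraries with replicate numbers 1 and 2 came from different cultures, so the p-values below measure the spread between libraries, which may be technical.

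BMAL1 pairs with CLOCK, and the pair binds E-box DNA, of which CACGTG is the usual form, to switch on the genes of the circadian clock. Among the products of those genes are the PER and CRY proteins, which together bind the pair and repress it, and the REV-ERB nuclear receptors (Nr1d1, Nr1d2), which repress Arntl, the gene of BMAL1. Proteins fused to the ligand-binding part of the estrogen receptor are commonly made responsive to 4-OHT, a ligand of that receptor. The comparison asks how far the BMAL1 ChIP signal falls at each site once PER2-ER is activated.

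The DNA at some of the regions is shown first because the loss differed between regions with and without an E-box. These stretches lie inside a region, upstream of an annotated start and outside annotated exons, and are printed 5′ to 3′ on the strand of the gene. Capitals mark CACGTG, or the related CACGTT (the E-prime box), which reads AACGTG on the other strand. The sequences are RefSeq promoter sequence of GRCm38.p6. The first 7 belong to genes of the clock and the last 3 to regions with none of these letters in the RefSeq sequence that covers them.
Per1: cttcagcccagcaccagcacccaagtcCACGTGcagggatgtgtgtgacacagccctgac
Cry1: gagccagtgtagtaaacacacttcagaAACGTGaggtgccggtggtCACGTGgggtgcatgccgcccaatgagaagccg
Cry2: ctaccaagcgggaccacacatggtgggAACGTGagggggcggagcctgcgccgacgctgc
Nr1d1: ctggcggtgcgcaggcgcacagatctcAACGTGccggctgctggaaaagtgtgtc
Ciart: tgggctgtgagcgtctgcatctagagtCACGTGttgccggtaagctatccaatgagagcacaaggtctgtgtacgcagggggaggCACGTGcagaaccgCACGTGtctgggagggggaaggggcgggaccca
Bhlhe41: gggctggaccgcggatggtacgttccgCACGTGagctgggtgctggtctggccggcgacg
Tef: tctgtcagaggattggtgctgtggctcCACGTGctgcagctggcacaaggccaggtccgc
Sertad1: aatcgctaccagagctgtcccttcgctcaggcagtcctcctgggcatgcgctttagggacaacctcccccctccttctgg
Smim14: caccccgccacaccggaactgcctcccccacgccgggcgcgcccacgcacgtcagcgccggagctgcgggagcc
Rusc2: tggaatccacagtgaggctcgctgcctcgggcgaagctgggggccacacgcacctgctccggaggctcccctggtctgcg

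In mm10 these stretches are chr11:69098756-69098815 (Per1, plus strand), chr10:85185082-85185160 (Cry1, minus strand), chr2:92434203-92434262 (Cry2, minus strand) and chr11:98775378-98775432 (Nr1d1, minus strand). Those of Ciart, Bhlhe41 and Tef are chr3:95882240-95882371 (minus), chr6:145865541-145865600 (minus) and chr15:81802519-81802578 (plus). Those of Sertad1, Smim14 and Rusc2 are chr7:27486746-27486825 (plus), chr5:65492989-65493062 (minus) and chr4:43381771-43381850 (plus). A match of letters is a description of the sequence and not a shown binding site.

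Signal is given as reads in the region per 10000000 reads of the library (RP10M), so it is not divided by length. The BMAL1 libraries held 13502201 to 20712373 reads and the inputs 12481308 to 33454366, and 1 read was worth 0.483 to 0.741 RP10M in a BMAL1 library. Fibroblast identity was checked in the mRNA libraries: 11 of 12 marker genes stood above 1 CPM (counts scaled to a common library total) in every library, and Thy1 had no read, which allows at most 0.0498 CPM. Of 14 markers of other cell types, 3 stood above 1 CPM in every library (Cdh1, at most 15.8 CPM, Sox2, at most 10.4, and Cd68, at most 3.21), and Adgre1, Cd3e and Cdh5 had no read. The mRNA libraries still held reads of all 4 knocked-out genes, from 16.4 CPM for Nr1d1 to 610 CPM for Per2. The labels do not say which part of each gene was deleted, and the Per2 counts were not separated from any reads of the PER2-ER transgene. These reads therefore do not check the knockouts. Arntl mRNA was close to level over the 4 libraries, at 54.2 to 58.6 CPM.

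BMAL1 signal was lower after 4-OHT at nearly all regions. The median region went from 25.2 and 22.7 RP10M (EtOH replicates 1 and 2) to 8.01 and 8.21 (4-OHT), so the groups did not overlap. The median log2 fold change, 4-OHT over EtOH, was −1.66, a 3.17-fold fall, with an interquartile range of −1.99 to −1.32. Across the regions, 4445 were called lower at an adjusted p below 0.05 in edgeR's quasi-likelihood test with library totals (93.8% of all regions, the background for every count below), and 0 were called higher, with 0 higher at an unadjusted p under 0.05. On the same totals, DESeq2 called 3329 lower (70.2%) and 0 higher. In the edgeR fit of ChIP and input together, which takes the input change off the ChIP change and is called the input-corrected fit below, 2395 were lower (50.5%) and 0 higher. Both 4-OHT libraries lay below both EtOH libraries at 4643 regions (98.0%). The summed signal of the regions fell to 28.2% of its EtOH value, or to 22.8% after subtraction of the matched inputs. An exact two-sided permutation test on the medians of the 4 libraries cannot go below p = 0.33, and gave that value.

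These calls rest on the library totals. The regions held 2.63% and 2.46% of all reads in the EtOH ChIP libraries, against 0.689% and 0.749% with 4-OHT. Whether the yield of the ChIP itself differed between the treatments was not tested. Factors set on the regions themselves (TMM) move the median log2 change of all regions to 0.02, and relative to that shared fall 228 regions were lower (4.81%) and 66 higher (1.39%), with 141 (2.97%) and 13 (0.274%) in DESeq2 with its own size factors. The falls described below are on the library-total scale, and the difference between strong and weak regions given below was −0.55 under TMM factors and −0.57 without them. In the inputs, which have no antibody, 0 of 4740 regions were called by edgeR, with 218 at an unadjusted p under 0.05, of which 159 were higher, and 1 was called with TMM factors. The median log2 input change was 0.13, against −1.66 in the ChIP.

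The 295 regions that were not called were mostly weak. Of them, 257 (87.1%) came from the weakest 2 deciles of the regions by EtOH signal. Their median signal went from 8.13 RP10M with EtOH to 5.20 with 4-OHT, at a median length of 105 bp. Their median log2 change was −0.71, and 12 of them had a value above 0. Just inside the threshold lay regions nearest to Ubb, which encodes a ubiquitin, to Scaf8 and to Rhbdf1, with log2 changes of −0.73, −1.45 and −1.12. Just outside lay regions nearest to Sept5, Trpc4ap and Zbtb5, with −1.07, −0.93 and −0.99. The Scaf8 value rests on 2 and 4 reads with 4-OHT and turned to 0.58 without EtOH replicate 1, and that of Rhbdf1 was −0.21 without EtOH replicate 2. All 3 calls inside the threshold were lost without 4-OHT replicate 2. The adjusted p of edgeR ranged only from 0.048 to 0.052 among these 6.

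The fall grew with the initial signal. Regions were ranked by their mean EtOH signal and cut into deciles of 474. In the weakest decile, at 0.937 to 10.3 RP10M, the library medians were 8.15 and 6.80 RP10M with EtOH and 2.18 and 2.90 with 4-OHT, and the median log2 change was −1.36. In the fifth decile the medians were 22.2 and 20.4 with EtOH against 6.91 and 7.72 with 4-OHT, and the change was −1.54. In the strongest decile, above 97.8 RP10M, they were 172 and 159 with EtOH against 37.5 and 41.3 with 4-OHT, and the change was −2.13. The 4 libraries of a decile never overlapped between treatments in these medians. The share of summed signal kept after 4-OHT went from 40.4% in the weakest decile to 25.3% in the strongest.

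The gradient was smaller once input was taken off. The median input of the weakest decile was 0.718 RP10M with EtOH and 0.897 with 4-OHT, against a 4-OHT signal of 2.18 and 2.90, while in the strongest decile the inputs stood at 5.74 and 6.12 against 37.5 and 41.3. After subtraction of the matched input the share kept went from 29.96% to 21.1%. The strongest quartile of regions differed from the weakest by −0.57 in median log2 change, and by −0.36 in the input-corrected fit. On the scale of the authors' table, which adds 5 to every value, the same difference was −0.98. In library medians the log2 ratio of the strongest to the weakest quartile was 2.83 and 2.95 with EtOH. It was 2.54 and 2.58 with 4-OHT, a difference of −0.33, given with no test.

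Because the EtOH libraries both ranked the regions and entered the fold, the ranking was also done in 1 EtOH library with the fold taken against the other. The difference between the strongest and the weakest quartile was then −0.63 with the ranking in replicate 1 and −0.49 with the ranking in replicate 2. In the second of these the log2 ratio of medians showed no order over the 6 weakest deciles, at −1.62, −1.61, −1.52, −1.59, −1.64 and −1.65, and reached −2.13 in the strongest. Ranking on the fold enrichment that the authors deposited with the peaks gave −0.61.

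**Figure D1:**
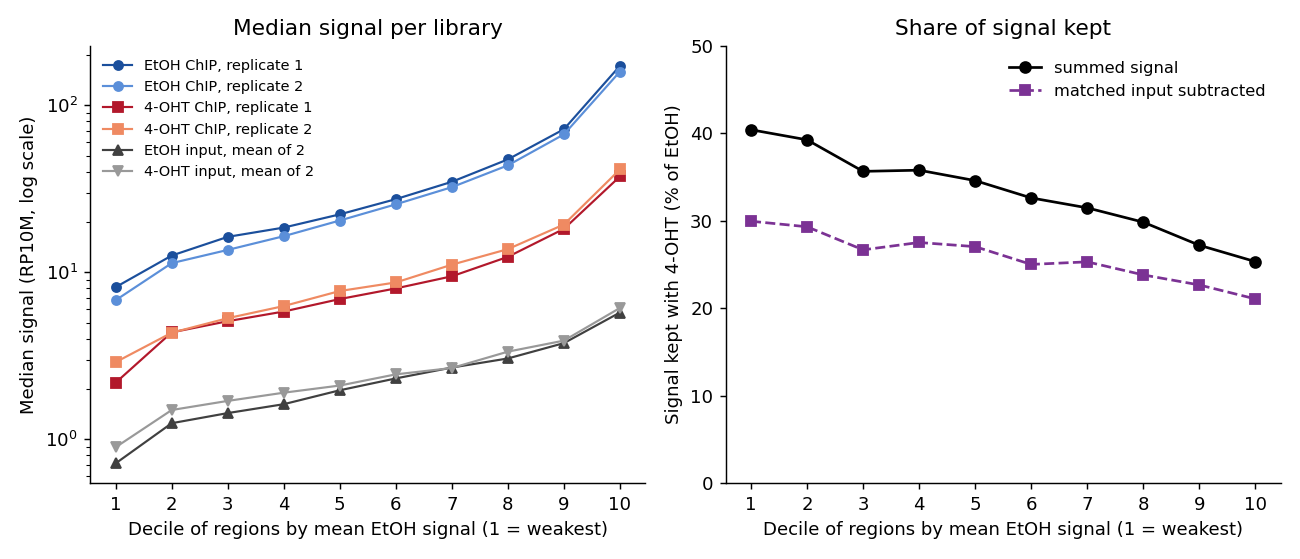
Regions in deciles by mean EtOH signal, 474 regions each. Left, median signal per library in RP10M on a log axis, with circles for the EtOH ChIP libraries, squares for the 4-OHT ChIP libraries and triangles for the input means. Right, summed 4-OHT signal as a percentage of summed EtOH signal, without (black) and with (violet) subtraction of the matched inputs. The share kept falls from 40.4% to 25.3%, and from 29.96% to 21.1% with subtraction.

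How well the size of a single region's fall could be read depended on its signal. The 2 pairs of libraries with the same number give separate estimates of each region's log2 fold. Across the 474 regions of the strongest decile these estimates had a Pearson r of 0.71 and a Spearman rho of 0.55. In the weakest decile r was 0.06, and in the ninth 0.24. These are correlations across regions of the same 4 libraries, which share depth. The spread of the log2 ratio among regions of the strongest decile, as a robust SD, was 0.28, against 0.15 that the replicates alone would give, and in the weakest decile it was 0.59 against 0.55. In the sixth, seventh and eighth deciles the spread was 0.40, 0.42 and 0.38 against 0.33, 0.33 and 0.30, and in the ninth 0.29 against 0.25. The excess over replicate noise thus did not rise steadily with signal. The 2 estimates were closest in order in the strongest decile, from which the regions named below are mostly taken. That decile also holds the 10 high-input regions described below, whose weight in its r was not tested.

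Region length followed signal closely, with a Spearman rho of 0.93 over 4740 regions, both being set in the same EtOH libraries. Lengths ran from 1 to 3087 bp with a median of 226.5 bp. In the shortest quartile (median 135 bp) the library medians were 11.8 and 10.2 RP10M with EtOH and 3.64 and 3.86 with 4-OHT, and the median log2 change was −1.43. In the longest quartile (median 472 bp) they were 79.2 and 74.9 with EtOH against 20.4 and 22.2 with 4-OHT, and the change was −1.91. Long regions thus lost more, by −0.48 in median log2 change, when signal was ignored. In library medians the log2 ratio of the longest to the shortest quartile was 2.74 and 2.87 with EtOH. It was 2.49 and 2.52 with 4-OHT, a difference of −0.30, given with no test.

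At matched signal the order by length was different. In the third quartile of signal, between 23.7 and 45.6 RP10M, the shortest regions (median 211 bp) went from 29.6 and 26.7 RP10M with EtOH to 7.28 and 8.21 with 4-OHT, a median log2 change of −1.81. The longest regions of the same quartile (median 368 bp) went from 38.5 and 34.02 to 11.6 and 12.6, a change of −1.58. Here the longer regions lost less, by 0.23, and by 0.25 after subtraction of the matched input. The difference was only 0.060 in the input-corrected fit and 0.060 on the scale of the authors' table. The log2 ratio of the long to the short class was 0.38 and 0.35 with EtOH, against 0.68 and 0.61 with 4-OHT, with no test, since the quartile was set on the EtOH signal itself. In the second signal quartile the same classes stood at −1.57 (short) and −1.45 (long), and in the weakest at −1.44 and −1.40. In the strongest quartile the order was the other way, with −1.95 for short and −2.07 for long regions, but signal still rose with length there, from a median of 59.2 to 201 RP10M in EtOH replicate 1.

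The direction at matched signal depends on how signal is measured. When regions were matched on RP10M per kb, the long regions of the third quartile lost more, by −0.20. Over regions, the log2 change had a Spearman rho of −0.46 with signal per kb, against −0.43 with signal and −0.33 with length. The EtOH reads enter both kinds of signal and the fold. A ranking in 1 EtOH library alone is not given for signal per kb. By signal per kb the lowest decile had a median log2 change of −1.32 and the highest −2.15. Among the 5 longest regions, those at the start of Nr1d1 (2634 bp), in an intron of Tef (1871 bp), at the start of Bhlhe40 (1655 bp) and in an intron of Hnrnpf (1473 bp) had log2 changes of −2.42, −2.31, −2.49 and −2.13. The longest of all, 3087 bp in the ribosomal RNA gene Rn45s, is described with the high-input regions.

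**Figure D2:**
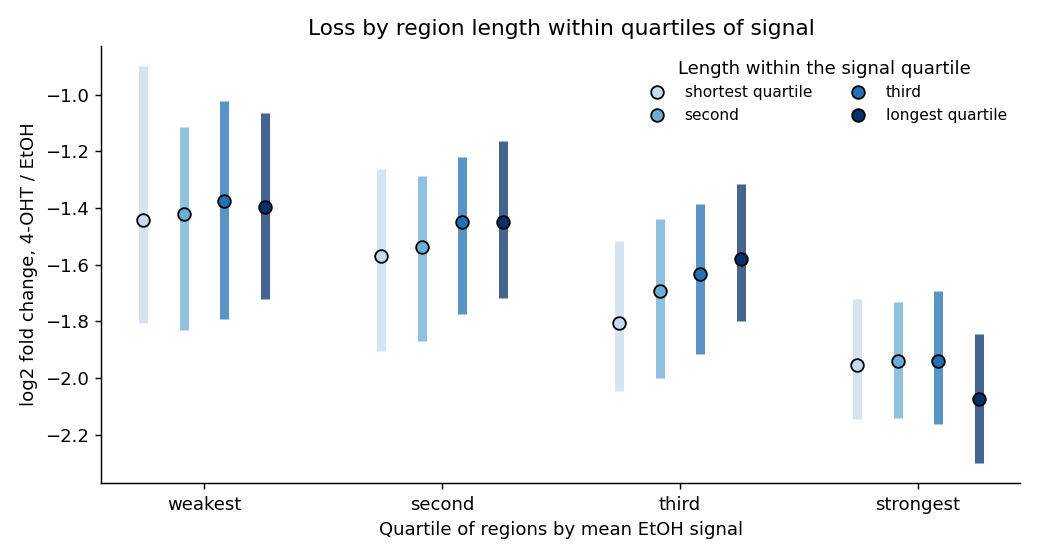
Median log2 fold change, 4-OHT over EtOH, by quartile of region length within each quartile of mean EtOH signal, with 296 or 297 regions per point. Bars span the quartiles of the regions. Within the third signal quartile the medians go from −1.81 for the shortest to −1.58 for the longest regions, and in the strongest quartile from −1.95 to −2.07.

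Very short regions and pieces of split peaks were the noisiest. The 113 regions under 50 bp had library medians of 3.70 and 3.40 RP10M with EtOH and 1.46 and 1.45 with 4-OHT, which is near the floor of 3 reads (1.45 to 2.22 RP10M). Of these, 42 were called lower (37.2%, background 93.8%). The 239 pieces of peaks that the authors' regions split had a median change of −1.52, against −1.67 for the 4501 whole peaks. Between both pieces of the same peak, over 118 pairs, log2 changes had a Spearman rho of only 0.22. Adjacent regions up to 1 kb apart (482 pairs) had a rho of 0.19, those 1 to 5 kb apart 0.11, and those 20 to 100 kb apart 0.0067. These pairs share their libraries, and low counts limit such a correlation.

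Position relative to genes made little difference. The 2944 regions within 1 kb of an annotated gene start had a median log2 change only 0.06 above that of the other 1796 regions. Without 4-OHT replicate 2 the difference was −0.016. Per library, the log2 ratio of the median near starts to that elsewhere was 0.04 and 0 with EtOH, against 0.14 and 0.17 with 4-OHT (exact permutation test, p = 0.33). In the weakest quartile of signal, regions near starts stood at −1.37, in introns at −1.50 and between genes at −1.45. In the strongest quartile the same classes stood at −1.97, −2.00 and −1.98. The 88 regions in exons kept 53.2% of their summed signal, a sum that includes 3 strong Rn45s regions, while their median log2 change was −1.81.

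Distance to the nearest start was read with and without matching on signal. The 1431 regions that contain a start were long (median 303 bp) and strong, with library medians of 38.5 and 35.2 RP10M with EtOH and 10.9 and 12.6 with 4-OHT, and their median log2 change was −1.72. The 886 regions that lie 1 to 250 bp from a start held 17.8 and 15.9 RP10M with EtOH and 5.82 and 6.28 with 4-OHT, with a change of −1.53. Without matching, then, the regions containing a start lost more than their near neighbours. Within the weakest quartile of signal the order turned: regions at a start had −1.24, those 1 to 250 bp away −1.38, and those 10 to 50 kb away −1.54. In the second quartile these values were −1.42, −1.45 and −1.56, and in the third quartile −1.60, −1.70 and −1.77. The fall did not grow steadily with distance, since regions 50 to 100 kb away stood at −1.32 in the weakest quartile. In the second quartile the largest fall was at 5 to 10 kb (−1.72), with −1.48 at 50 to 100 kb, and in the third quartile regions over 100 kb away stood at −1.60, as did those at a start. In the strongest quartile, at −1.98, −1.93 and −1.99, the classes were close together. These medians were not tested against each other.

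**Figure D3:**
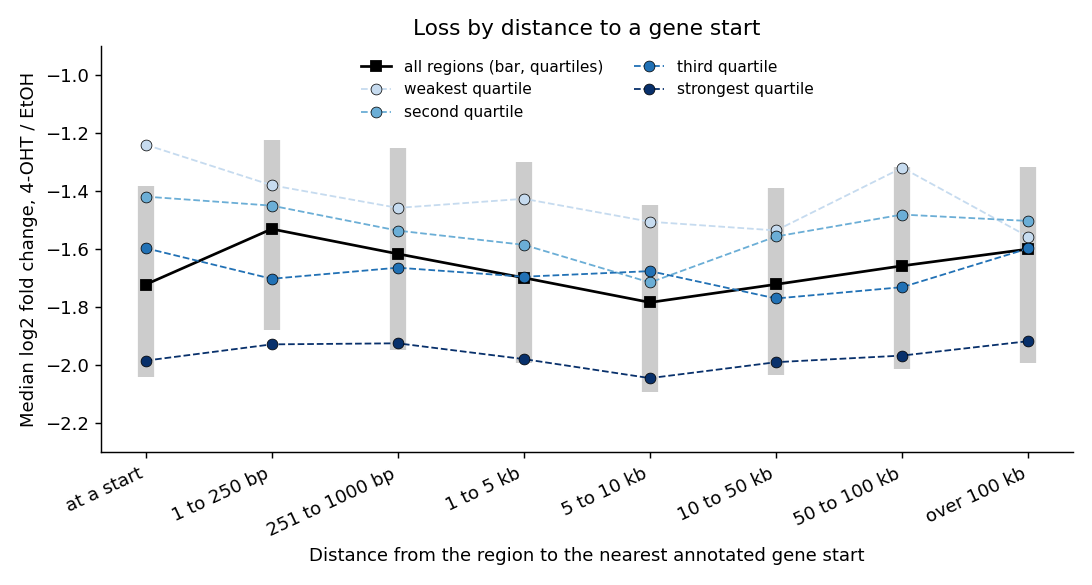
Median log2 fold change, 4-OHT over EtOH, by distance from the region to the nearest annotated gene start, where the first class contains the start. Black squares are all regions with grey bars for their quartiles, and circles are quartiles of mean EtOH signal. Over all regions the medians lie between −1.53 and −1.78, while the weakest and the strongest quartile of signal are further apart than that at each distance plotted.

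The strand arrangement of starts and the side of a region made no visible difference. Regions with starts on both strands within 1 kb (407) had a median of −1.63 and those with starts on 1 strand (2537) −1.64. Off the start and up to 10 kb from it, regions upstream of their nearest start had −1.62 (929 regions) and downstream −1.61 (1220 regions).

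Chromosomes differed in the size of the fall, in step with their input. On chromosome 7, where regions went from 22.2 and 18.7 RP10M to 6.55 and 6.28 after 4-OHT, the median log2 change was −1.90 over 207 regions. On chromosome 3 they held 25.9 and 23.8 with EtOH against 8.73 and 9.17 with 4-OHT, and the change was −1.53 over 295 regions. Chromosomes 9, X and 11 stood at −1.88, −1.82 and −1.80, and chromosomes 19, 15 and 8 at −1.55, −1.55 and −1.56. The median EtOH input at the regions, per kb of region, ran from 4.89 RP10M on chromosome X, 5.93 on 9 and 5.99 on 7 to 11.2 on chromosomes 3, 8 and 10 and 11.3 on 15.

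Over 20 chromosomes the input per kb and the median log2 change had a Spearman rho of 0.89, given as a description over chromosomes of the same libraries. Within the quartiles of signal, from weakest to strongest, rho was 0.87, 0.87, 0.88 and 0.76. With the share kept after input subtraction in place of the log2 change, rho was 0.78. The 5 chromosomes with the highest input per kb (15, 8, 10, 3 and 19, with 1457 regions) had a median log2 change of −1.56, and the 5 with the lowest (X, 9, 7, 14 and 11, with 946 regions) −1.83. This difference of 0.27 was 0.19 after subtraction of the matched input, 0.24 in the input-corrected fit and 0.10 on the scale of the authors' table. These chromosome groups were chosen after the values were seen. The log2 ratio of the first group to the second was 0.22 and 0.26 with EtOH, against 0.42 and 0.44 with 4-OHT (exact permutation test, p = 0.33). EtOH ChIP signal per kb was also lower in the low-input group, at a median of 100.2 RP10M per kb, than in the high-input group, at 116.9. Single chromosomes did not all follow this order, with 104.5 on chromosome 11 and 99.7 on 18, which had more input per kb. Whether the input follows the number of copies of a chromosome in these cells was not tested.

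**Figure D4:**
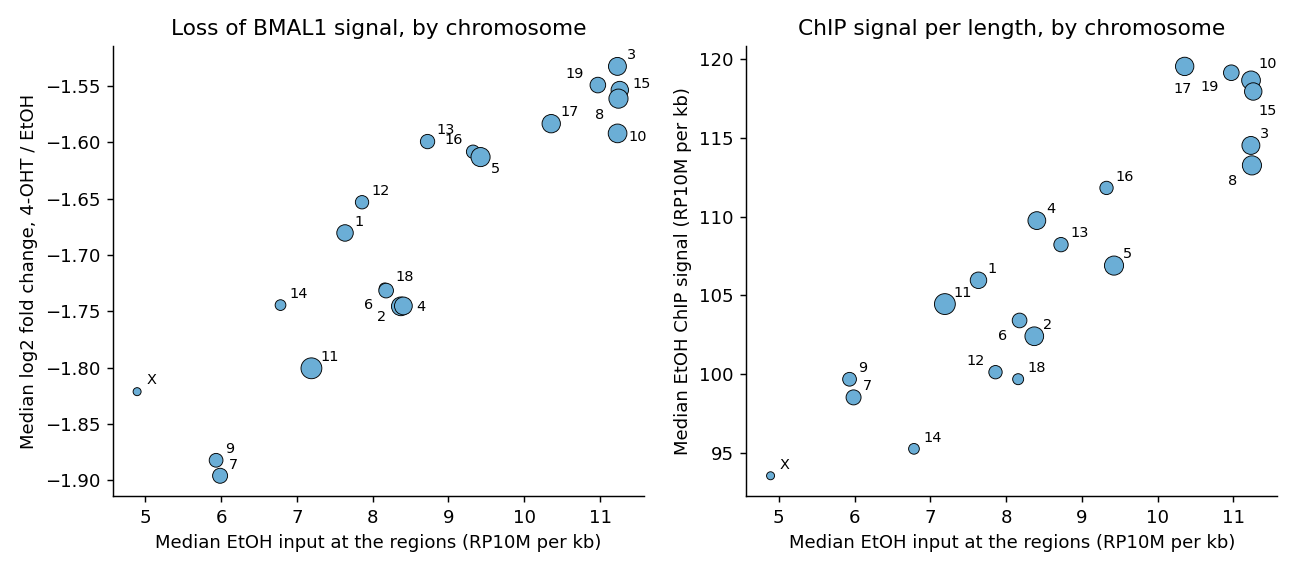
Chromosomes by median EtOH input at their regions (horizontal axis, RP10M per kb) against the median log2 fold change, 4-OHT over EtOH (left), and against the median EtOH ChIP signal (right, RP10M per kb). Each point is a chromosome and its area grows with the number of regions. Chromosomes with low input (X, 9 and 7) lie at −1.82 to −1.90 and those with the highest input (3, 8, 10 and 15) at −1.53 to −1.59.

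In the strongest decile of signal, the regions that kept most of it were those with high input. The 10 smallest falls of the strongest decile were exactly the 10 regions of the series with an input of 40 RP10M or more, a limit set after the values were seen. The largest of them, chr17:39843018-39846104, lies in Rn45s, the gene of the 45S ribosomal RNA precursor, which is present in many copies in the genome. It held 5972 and 6029 RP10M with EtOH and 4243 and 4913 with 4-OHT, against inputs of 2338 and 2269, and its log2 change was −0.39 (SE 0.09). The 3 other Rn45s regions fell by 0.33, 0.34 and 0.36. Regions between genes or in introns nearest to Pex2, Cdk8, Axin2, Txndc11 and Filip1l had changes of −0.21 to −0.44 at inputs of 42.9 to 121 RP10M. The last, at the start of the pseudogene Pisd-ps3 on unplaced sequence, had −0.66. Below the strongest decile and below this limit of input, 2 further Pisd-ps3 regions, with inputs of 26.2 to 28.7 RP10M, had −0.30 and −0.40 and were not called by edgeR (adjusted p = 0.20 and 0.083).

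Together these 10 regions kept 76.5% of their signal, or 61.8% after input subtraction, while the other 4730 kept 26.1%, or 21.7%. Their 4-OHT values lay below their EtOH values in all libraries, and edgeR called 9 of the 10 lower, all but the region near Pex2 (adjusted p = 0.099). Of the 9 calls, only that of Pisd-ps3 held whichever library was left out. Those of Cdk8, Axin2, Txndc11, Filip1l and 2 Rn45s regions were lost without EtOH replicate 1, and those of Cdk8, Txndc11 and 3 Rn45s regions without EtOH replicate 2. Cdk8 and Filip1l lost theirs without 4-OHT replicate 1, and Axin2 and Filip1l without 4-OHT replicate 2. DESeq2 with library totals did not call Cdk8, Axin2 and Txndc11, nor did the fit with the replicate block call Cdk8. In the input-corrected fit the regions nearest to Pex2, Cdk8, Axin2, Txndc11 and Filip1l and 1 Rn45s region were not called. How reads of repeated sequence were placed is not stated in the labels or headers. Without these 10 regions the difference between the strongest and the weakest quartile of signal was −0.57, as with them.

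The start regions of the clock's own repressor genes were among those that lost most. For each of the 10 listed genes a region contained the start. All 10 regions were called lower (background 93.8%) and all 10 were in the strongest decile. Their median log2 change was −2.56, against −2.13 for that decile, and 9 of the 10 lay below the median of the decile. The median EtOH signal of the decile was 168 RP10M, while all of these regions but Bhlhe41 (113) held 387 (Per1) or more. They were not matched on signal within the decile. Strong regions nearest to other genes, given below, had falls both of this size and smaller. The genes were chosen with earlier results of these data known.

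Per1 and Per2 encode repressors whose own genes are knocked out in these cells. At Per1 the region (chr11:69098355-69099359) held 376 and 399 RP10M with EtOH and 74.2 and 89.8 after 4-OHT. Its log2 change was −2.22 (SE 0.13). At Per2 (chr1:91458543-91459894) the values were 1777 and 1749 with EtOH against 289 and 317 with 4-OHT, a change of −2.54 (SE 0.10). Per3, which is not knocked out, went from 631 and 667 to 85.9 and 104 (chr4:151044115-151045106), and its change of −2.76 (SE 0.12) was among the 10 largest of the strongest decile. In all 3 the libraries of a treatment were far closer to each other than to the other treatment.

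The CRY genes encode the partners of PER in repression. Cry1, whose printed stretch holds an E-box and an E-prime box, went from 1638 and 1493 RP10M with EtOH to 238 and 270 with 4-OHT (chr10:85184459-85185659, log2 change −2.61, SE 0.10). Cry2, whose stretch holds an E-prime box, went from 912 and 904 to 134 and 162 (chr2:92433607-92434523, −2.60, SE 0.11). The 2 genes differed in initial signal but kept shares of 16.2% and 16.3%.

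The REV-ERB genes carried some of the strongest signal of all. Nr1d1 went from 3077 and 2986 RP10M to 539 and 591 (chr11:98773565-98776198, −2.42, SE 0.10). Nr1d2 went from 2868 and 2700 to 424 and 498 (chr14:18238213-18239398, −2.59, SE 0.10). Ciart, listed as Gm129 in the deposited annotation, encodes a repressor of CLOCK and BMAL1 and has 3 CACGTG matches in its printed stretch. It fell from 2426 and 2218 to 332 and 337 (chr3:95881678-95883058, −2.79, SE 0.10), the largest fall of the list, and kept 14.4%.

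Bhlhe40 and Bhlhe41 encode repressors that themselves bind E-boxes. The region at Bhlhe40 fell from 1338 and 1316 RP10M to 217 and 253 (chr6:108659175-108660829, −2.49, SE 0.10). That at Bhlhe41 was the weakest of the list, at 104 and 121 with EtOH and 24.7 and 29.0 with 4-OHT (chr6:145865372-145865842, −2.05, SE 0.20), and it was the single member that did not lie below the median of its decile. Another Bhlhe41 region, 9208 bp from the start, was far stronger, and went from 930 and 935 to 144 and 158 (−2.62).

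The PAR bZIP genes encode activators that the clock drives in antiphase to their competitor Nfil3, which had no region within 10 kb. The start of Dbp went from 734 and 733 RP10M to 111 and 140 (chr7:45704444-45705429, −2.53, SE 0.11). The start of Hlf went from 338 and 319 to 75.7 and 79.2 (chr11:90390582-90391173, −2.08, SE 0.13), and that of Tef from 106 and 104 to 27.7 and 28.0 (chr15:81802331-81802850, −1.91, SE 0.20). The main Tef site was in an intron, 7534 bp from the start, where 4676 and 4580 RP10M with EtOH became 893 and 974 with 4-OHT (chr15:81810207-81812077, −2.31, SE 0.09). It was the strongest region outside Rn45s. All 3 start regions were called lower, and Dbp alone lay below the median of the strongest decile.

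Among the activators, Clock, which encodes the partner of BMAL1, had a region within 10 kb, and Arntl, Npas2, Rora and Rorb had none. The region was weaker than the repressor regions, and its fall was larger than the median of its decile. At Clock, 22.2 and 18.1 RP10M became 3.64 and 4.35 (chr5:76304463-76304745), a log2 change of −2.28 (SE 0.44) against −1.54 for its decile, from 5 and 9 reads with 4-OHT.

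The regions of the output genes had a median log2 change of −1.22. Of 8 listed genes, 5 had a region, all 5 were called lower, and none lay below the median of its decile. At Wee1, which encodes a kinase that holds back cell division, 344 and 326 RP10M became 75.7 and 79.2 (chr7:110121317-110122564, −2.11, SE 0.13). At Nampt, an enzyme of NAD synthesis, 85.9 and 81.1 became 24.7 and 21.2 (chr12:32819940-32820800, −1.87, SE 0.23). At Por, which encodes the electron donor of cytochromes P450, 18.5 and 17.6 became 9.46 and 9.17 (chr5:135689029-135689215, −0.95, SE 0.37). Por and the regions of Tspan4 (−1.14) and Cdkn1a (−1.22), an inhibitor of the cell cycle, had smaller falls than the median region (−1.66). Por lost its call in DESeq2, in the input-corrected fit and when either EtOH library or 4-OHT replicate 2 was left out, and Cdkn1a lost its call in DESeq2. With TMM factors, relative to the shared fall, Wee1 alone of the 5 was called lower. Of the modifiers of PER and CRY, Csnk1d, Csnk1e, Fbxl21, Btrc and Fbxw11 had no region within 10 kb of their starts.

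The largest falls of the strongest decile were not at clock starts only. A region between genes, 28260 bp from the start of Slc24a3 (chr2:145214047-145214351), went from 133 and 131 RP10M to 13.8 and 14.5, a log2 change of −3.21 (SE 0.22), and kept 10.7%. An intronic region nearest to Farp1 (chr14:121108375-121108729) went from 105 and 116 to 14.6 and 12.6 (−3.04, SE 0.23). Regions between genes nearest to 4930511E03Rik, Lsm3 and Efcab10 had −2.84, −2.82 and −2.79, and regions at the starts of Napa and Tbcel −2.76 and −2.72. Ciart and Per3 were also among the 10 largest falls. The inputs of these 10, between 0.884 and 21.9 RP10M, were all under the limit of 40. The members were picked by their fold, so these values are a description.

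Strong sites away from starts also lost most of their signal. The strongest regions between genes lay 3254 bp from the start of Per1, with 1881 and 1785 RP10M falling to 290 and 332 (−2.55), and 26886 bp from that of Hlf, with 1418 and 1430 falling to 282 and 331 (−2.21). A region 7626 bp from the start of Nr1d1 went from 1147 and 1225 to 191 and 198 (−2.61), and one nearest to Mir670 from 1201 and 1050 to 205 and 213 (−2.42). In introns, after Tef, the strongest were nearest to Ap5s1 (−2.51), Phf17 (−2.47), Pfkfb3 (−2.67) and Hnrnpf (−2.13). In exons outside Rn45s they were nearest to Dctd (−2.25) and Pfkfb3 (−2.07), the latter a glycolytic regulator with 2 such sites.

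Regions with CACGTG lost more than regions without it. RefSeq promoter sequence covers at least 80% of 708 regions. The 248 of these with CACGTG went from 28.1 and 24.95 RP10M with EtOH to 7.28 and 8.69 with 4-OHT at the median, and their median log2 change was −1.71. The 460 without it went from 16.3 and 14.7 to 5.09 and 6.76, and their change was −1.40. The 22 regions with 2 or more CACGTG stood at −2.14, and the 32 with CACGTT but no CACGTG at −1.59. Regions without a match also fell. The 3 whose sequences are printed were chosen after their values were seen, and each fell by more than the median of −1.40 for the 460 without CACGTG. The region at Sertad1 went from a mean of 49.2 to 10.9 RP10M (−2.16), that at Smim14 from 42.5 to 9.80 (−2.10) and that at Rusc2 from 38.2 to 10.4 (−1.80). Regions with a match were also longer and stronger.

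The medians differed in the same direction at matched signal. In the weakest quartile of signal the medians were −1.47 with CACGTG (35 regions) and −1.27 without (214). In the second quartile they were −1.57 and −1.38, and in the third −1.78 and −1.51. In the strongest quartile, with 59 and 16 regions, they were −1.94 and −1.86. Length quartiles among the 708 regions gave −1.53 against −1.37 in the shortest and −1.90 against −1.60 in the longest. For the other motifs the median with and without a match was −1.44 and −1.51 for TGACTCA (AP-1), −1.57 and −1.50 for TGACGTCA (CRE), −1.44 and −1.53 for CCGGAAG (ETS), and −1.55 and −1.42 for GGGCGG (GC box). All motifs were read on both strands, none was tested, and the regions covered are those near starts.

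Windows of equal length gave the same order. RefSeq windows of 300 bases, from 250 before to 50 after a start, hold CACGTG in 7.15% of 32817 cases. Of the 1116 windows with at least 150 bases in a region, 53.7% held it. By quartile of loss, from the smallest fall to the largest, the share was 18.8%, 46.8%, 61.7% and 69.4%, and the share with 2 or more CACGTG was 2.76%, 1.86%, 6.33% and 19.7%. By quartile of signal the share with CACGTG was 26.8%, 36.7%, 46.6% and 68.3%. GGGCGG, which is common in promoters, was held by 72.4% to 80.9% of the windows in every quartile of loss. CACGTT was held by 5.95% to 9% of them, against 4.69% of all windows.

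The mRNA of genes whose start lies within 1 kb of a region showed no order like that of the loss. In all, 216 of 13216 tested genes were called lower (1.63%) and 106 higher (0.802%) by edgeR. Counts of higher genes were 67, 40, 199 and 45 without EtOH replicate 1, EtOH replicate 2, 4-OHT replicate 1 and 4-OHT replicate 2, and 139 were lower without EtOH replicate 2. Of 2522 tested genes with a region, 47 fell (1.86%) and 30 rose (1.19%). By quartile of loss at the strongest region of the gene, from the smallest fall to the largest, 15, 13, 8 and 11 genes fell and 6, 7, 6 and 11 rose, of 614 to 648 per quartile. The median mRNA log2 change was −0.0091 to 0.0034 over the 4 quartiles, while the median BMAL1 change went from −1.10 to −2.22.

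In the strongest decile of signal 13 of 332 genes rose (3.92%) and 6 fell (1.81%). Among those that rose were Cry1 (mRNA log2 change 0.74), Cry2 (0.68), Hlf (0.94), Bhlhe41 (0.54), Ciart (0.41, listed as Gm129) and Bhlhe40 (0.31). Among those that fell were Per3 (−0.47), and Nr1d1 (−1.63) and Nr1d2 (−1.24), both labelled as knocked out and read here from the transcripts that remain. Starts that lost BMAL1 signal by a similar factor, such as those of Cry1 (−2.61) and Nr1d2 (−2.59), thus had mRNA changes of opposite sign at 4 h. Bulk mRNA does not separate a change per cell from a change in the number of cells.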

How the data were processed

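BMAL1 ChIP, input and mRNA libraries, 2 per treatment, were grouped by the labels. The deposited counts of reads per region cover the same 4740 regions in all 8 ChIP and input libraries, on mm10 per the submitters' processing notes, which name bedtools 2.25.0, featureCounts and DESeq2. The aligner, and whether replicates were pooled for the peak calls, are not given in the sources used here. A deposited signal table named as RPKM holds 5 plus reads per 10000000 library reads, with no division by length, which gave each library total as a whole number. The authors' fold enrichment (a ratio) and −log10 q of the peaks describe the EtOH regions only. Gene counts were made by the authors with featureCounts 1.5.0-p1, reverse-stranded, per the file headers. The authors' own mRNA comparison table was not used.

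Regions were tested with edgeR 4.0.16 (R 4.3.3; robust quasi-likelihood, library totals, no filter, Benjamini-Hochberg over all regions), and genes with TMM factors and its default filter. Standard errors are the log2 change over the root of F. Alternatives were DESeq2 1.42.0, TMM, an input-corrected fit over ChIP and input, filters (at least 10 reads, at least 50 bp), a replicate block and each library left out. The edgeR fits of ChIP, input and mRNA were also run on simulated data in which few features were changed. The ChIP differs from that setting, so the simulation does not check its calls. Starts and exons come from the deposited annotation, with 133 of 23420 genes, placed on several chromosomes or strands, left out. Intervals are not given, since PCR reads without molecular identifiers are not independent molecules, and the floor of 3 reads covers counting error only. Log2 folds of single library pairs used a pseudocount of 0.5 RP10M.

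Regions named were set by a rule: those nearest within 10 kb to the start of 34 listed genes, the 10 smallest and 10 largest falls of the strongest decile, the 5 strongest of each position class, the 5 longest, the 5 shortest above the median signal, and 3 on each side of the threshold. The members, lists and tests were chosen with earlier results of these data known. Genes are named only as the nearest start, and a few regions and genes that the rule covers are not reported here. Sertad1, Smim14 and Rusc2 lie outside this rule and were chosen after their values were seen. Replicate numbers showed no sign of pairing the libraries: the correlation of deviations from the group means was 0.02 for ChIP, 0.01 for input and −0.18 for mRNA. Low counts limit such a correlation at the regions, so it cannot decide whether libraries were paired.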

Additional observations from a re-analysis of the deposited data

How the results depend on the processing

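Scaling set the counts of called regions. TMM factors over the regions gave 228 lower and 66 higher, DESeq2 with its own size factors 141 and 13, and the input-corrected fit 2395 and 0. Leaving out each library gave 3753 to 4234 lower and 0 higher. The log2 ratio of the library medians was −1.56, −1.89 after input subtraction and −1.64 to −1.48 with a library left out. Input regions called were 1 with TMM factors and 0 otherwise.

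The difference between the strongest and the weakest quartile of signal (−0.57) kept its sign everywhere: TMM −0.55, DESeq2 with totals −0.56 and with its own factors −0.56, the input-corrected fit −0.36, matched input subtracted −0.36, at least 10 reads −0.60, prior count 2 −0.75, the authors' scale −0.98, ranking in EtOH replicate 1 −0.63 or 2 −0.49, ranking on fold enrichment −0.61, and −0.64 to −0.52 with a library left out. By length (−0.48) the values were TMM −0.45, DESeq2 −0.45 and −0.45, the input-corrected fit −0.40, matched input −0.30, prior count 2 −0.65, the authors' scale −0.88, and −0.55 to −0.44 with a library left out. At matched signal (0.23) length gave 0.060 in the input-corrected fit, 0.060 on the authors' scale, 0.18 at prior count 2, 0.25 with matched input, −0.20 on signal per kb and 0.19 to 0.26 with a library left out. By position (0.06) the values with a library left out were −0.016 to 0.094. By chromosome input (0.27) they were 0.10 on the authors' scale and 0.19 with matched input. In library medians the difference was −0.33 by signal and −0.30 by length, given with no test. The value by signal is smaller in size than all the others listed for it. The cause of these shifts was not tested.

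With the replicate block 4377 regions were lower, and no class difference moved. For mRNA the block gave 152 lower and 60 higher. Crossed pairing, added after seeing the data, gave 611 and 518. DESeq2 gave 183 and 62, and libraries left out gave 139 to 249 lower and 40 to 199 higher.

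Relative to the shared fall, named regions that fell least had the opposite sign. With TMM these were Por (0.73), Tspan4 (0.55), Cdkn1a (0.47), Ubb (0.96), Scaf8 (0.21), Rhbdf1 (0.54), Sept5 (0.60), Trpc4ap (0.75), Zbtb5 (0.69), Scd2 (0.27) and 4930467E23Rik (1.00). The high-input regions gave, with TMM and then DESeq2's own factors, 1.48 and 1.502 (Pex2), 1.45 and 1.46 (Cdk8), 1.39 and 1.41 (Axin2), 1.37 and 1.38, 1.35 and 1.37, 1.35 and 1.36, 1.31 and 1.32 (Rn45s), 1.30 and 1.31 (Txndc11), 1.27 and 1.29 (Filip1l), 1.04 and 1.05 (Pisd-ps3), and 2 further Pisd-ps3 regions 1.40 and 1.41, and 1.29 and 1.31. Scaf8, with 2 and 4 reads after 4-OHT, gave −2.42 to 0.58 with a library left out. Depth limits single weak regions most: 3 reads were 1.45 to 2.22 RP10M.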
